A study of Mus musculus with 12 samples.

Results

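The genes described here encode 36 aminoacyl-tRNA synthetases, 20 that charge tRNAs in the cytosol and 16 that act in mitochondria, out of 24343 uniquely named genes in the data. Members were taken by gene symbol from a fixed list, with the mitochondrial enzymes being those whose symbol ends in 2, and the rule uses no measured value. All 36 were found in every library and all 36 passed the filter on low values. RNA-seq was performed on HT22 cells, an immortalized mouse hippocampal neuronal line, in 12 libraries that form 4 groups of 3 biological replicates. The first group, siControl, received a non-targeting siRNA, and the second, siNCOA4, received an siRNA against Ncoa4, the cargo receptor that delivers ferritin to the lysosome so that its iron can be released. The third, siControl+DFO, had the non-targeting siRNA and the iron chelator desferrioxamine (DFO) at 100 µM for 24 h, and the fourth, siNCOA4+DFO, had the Ncoa4 siRNA and the same DFO exposure. All 4 groups were therefore transfected, and both siNCOA4 groups rest on 1 siRNA in 1 cell line. The groups ask how transcript levels answer to loss of Ncoa4, to iron chelation and to the combination.

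An aminoacyl-tRNA synthetase joins one amino acid to the tRNAs that carry it, which is the step that gives the genetic code its meaning. Animal cells keep separate nuclear genes for most cytosolic and mitochondrial enzymes, although Gars and Kars, for glycine and lysine, each give rise to both forms, and mitochondria make glutaminyl-tRNA through glutamyl-tRNA and an amidotransferase rather than through a synthetase of their own. Several cytosolic enzymes sit in the multisynthetase complex, a particle held together by the scaffold proteins Aimp1, Aimp2 and Eef1e1. Many cytosolic synthetase genes are known targets of Atf4, the transcription factor of the amino acid response, which binds C/EBP-ATF response elements.

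Such an element, with the letters TGATGNAA, was looked for on both strands of the RefSeq promoter windows of build GRCm38.p6, each running from 250 bases before to 50 bases after the listed transcription start. A window was found for 27 of the 36 members. The letters occurred in 5 of 13 cytosolic members with a window (38.5%) and in 0 of 14 mitochondrial ones. They occurred in 4.51% of all 27025 genes with a window, and in 3.97% of all 32851 windows. The match nearest the listed start is shown for each of these 5 genes, so that the letters can be read in their setting, and each is written 5′ to 3′ on the strand that carries the letters, with those letters in capitals.
Aars, chr8:111033841-111033868, minus strand, within the transcript from its base 10: cagagcgctcTGATGAAAagtgacccgc
Gars, chr6:55037961-55037988, minus strand, 30 bases before the start: gcccggtgcaTGATGAAAtagcgcagcc
Iars, chr13:49682127-49682154, minus strand, within the transcript from its base 8: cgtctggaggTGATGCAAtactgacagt
Tars, chr15:11399656-11399683, plus strand, 15 bases before the start: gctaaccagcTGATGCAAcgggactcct
Yars, chr4:129189896-129189923, plus strand, within the transcript from its base 4: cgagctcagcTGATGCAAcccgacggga
These are the enzymes for alanine, glycine, isoleucine, threonine and tyrosine. A match is a description of these letters in this window and does not show that a factor binds there.

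The deposited values are FPKM, fragments scaled by gene length and library size. Relative depth, read from the steps between low values, ranged from 0.927 in siNCOA4+DFO replicate 3 to 1.41 in siNCOA4 replicate 3, with siControl replicate 1 set at 1. Ncoa4, the siRNA target, stood at 6.46, 6.19 and 6.02 FPKM in siControl and at 0.770, 0.952 and 0.891 in siNCOA4, and at 8.70, 8.31 and 7.52 in siControl+DFO and 0.850, 1.28 and 1.57 in siNCOA4+DFO. Every siNCOA4 library was below every library with the control siRNA. Of 14 neuronal markers only 2 passed the filter on low values. Tubb3, a neuronal tubulin, averaged 7.77 FPKM in siControl, whereas Map2 and Rbfox3 were listed at 0 in all 3 siControl libraries. All 6 mesenchymal markers passed, with summed levels of 5136 to 5736 FPKM in siControl, 4530 to 4958 in siNCOA4, 2758 to 2812 in siControl+DFO and 2534 to 3055 in siNCOA4+DFO. Of 5 astrocyte markers 2 passed, and their list summed to 36.5 to 46.0 FPKM in siControl, 22.5 to 27.0 in siNCOA4, 3.31 to 5.48 in siControl+DFO and 6.98 to 15.3 in siNCOA4+DFO. Slc1a3, a glutamate transporter of astrocytes, carried most of that sum, with means of 42.15, 24.0, 3.595 and 7.13 FPKM in these groups. Aldh1l1, the other that passed, went the other way, with means of 0.324, 0.811, 0.679 and 2.495 FPKM. Of 6 oligodendrocyte markers 2 passed, with sums of 19.9 to 22.5, 12.8 to 13.9, 4.03 to 5.16 and 3.80 to 10.1 FPKM in the same groups. The neuronal list summed to 8.47 to 9.32, 6.34 to 7.99, 12.2 to 13.8 and 5.91 to 10.1 FPKM. Tubb3 carried most of it, while Camk2a, the other neuronal marker that passed, had means of 0.585, 1.36, 0.0903 and 0.1735 FPKM. No microglial or endothelial marker passed. In siNCOA4+DFO replicate 3, Slc1a3 stood at 12.1 FPKM against 4.13 and 5.22 in the other replicates. Pdgfra, a receptor of oligodendrocyte precursors and mesenchyme, stood at 9.25 there against 2.98 and 3.73. These sums thus moved with DFO, and in part with siNCOA4, beside the synthetases, though single markers went either way. Their part in the results was not tested. FPKM is a share of each library, so a change in a gene cannot be told apart from a change in the rest of the RNA, nor fewer cells using a gene from less RNA per cell.

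In siControl cells the cytosolic transcripts were far more abundant than the mitochondrial ones. Per length, the cytosolic levels ran from 16.7 FPKM for Farsb, a subunit of the phenylalanine enzyme, to 184 for Gars, with a median of 51.8. Leaving out Lars2, the mitochondrial levels ran from 1.25 FPKM for Ears2, the glutamate enzyme, to 23.4 for Iars2, the isoleucine enzyme, with a median of 6.33. The order of the levels was only partly resolved by 3 libraries. Among neighbours in the order, 12 cytosolic pairs overlapped in their siControl ranges and 7 were separate, and among mitochondrial neighbours 9 overlapped and 6 were separate. The summed cytosolic level was 1271 FPKM in siControl, 1229 in siNCOA4, 2101 in siControl+DFO and 1761 in siNCOA4+DFO. The mitochondrial sum without Lars2 was 118, 114, 98.8 and 96.2 FPKM in the same groups. The cytosolic sum was thus highest with DFO alone, and the mitochondrial sum was lower in both DFO groups.

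Lars2, the mitochondrial leucine enzyme, was the exception in level. It stood at 605, 461 and 338 FPKM in siControl, above every other member, and at 352, 380 and 286 in siNCOA4, 413, 391 and 434 in siControl+DFO and 343, 267 and 271 in siNCOA4+DFO. The siControl libraries alone spread from 338 to 605 and overlapped every other group. The entry Rn45s, the 45S ribosomal RNA precursor, also varied widely, between 12060 and 21050 FPKM over the siControl and siNCOA4 libraries. Lars2 per 1000 FPKM of Rn45s was 25.8 to 28.9 in siControl, 23.7 to 27.9 in siNCOA4, 18.7 to 23.4 in siControl+DFO and 15.4 to 19.2 in siNCOA4+DFO. The ratio spread less than the Lars2 level in siControl and siNCOA4, but not in siControl+DFO. None of the 75-base stretches of Lars2 transcripts occurred in another gene of the transcript set used here, which does not hold Rn45s, so sharing with it was not tested. Lars2 is therefore given apart from the other mitochondrial members wherever levels are summed.

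DFO raised most cytosolic synthetases. In siControl+DFO against siControl, 14 of 20 cytosolic members rose and 2 fell at a limma adjusted p below 0.05, where 27.7% of all 11924 genes tested rose and 25.7% fell. The median cytosolic log2 fold change was 0.75, against -0.01 over all genes tested. Requiring a fold change above 2 as well left 5 that rose, namely Cars, Wars, Nars, Rars and Aars, where 11.1% of all genes rose and 7.76% fell by that rule. In 14 cytosolic members every siControl+DFO library was above every siControl library and in 2 every one was below, as in 31.1% and 29.6% of all genes. Of the 16 mitochondrial members 1 rose, 6 fell and 9 did not pass, with a median of -0.23.

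**Figure D1:**
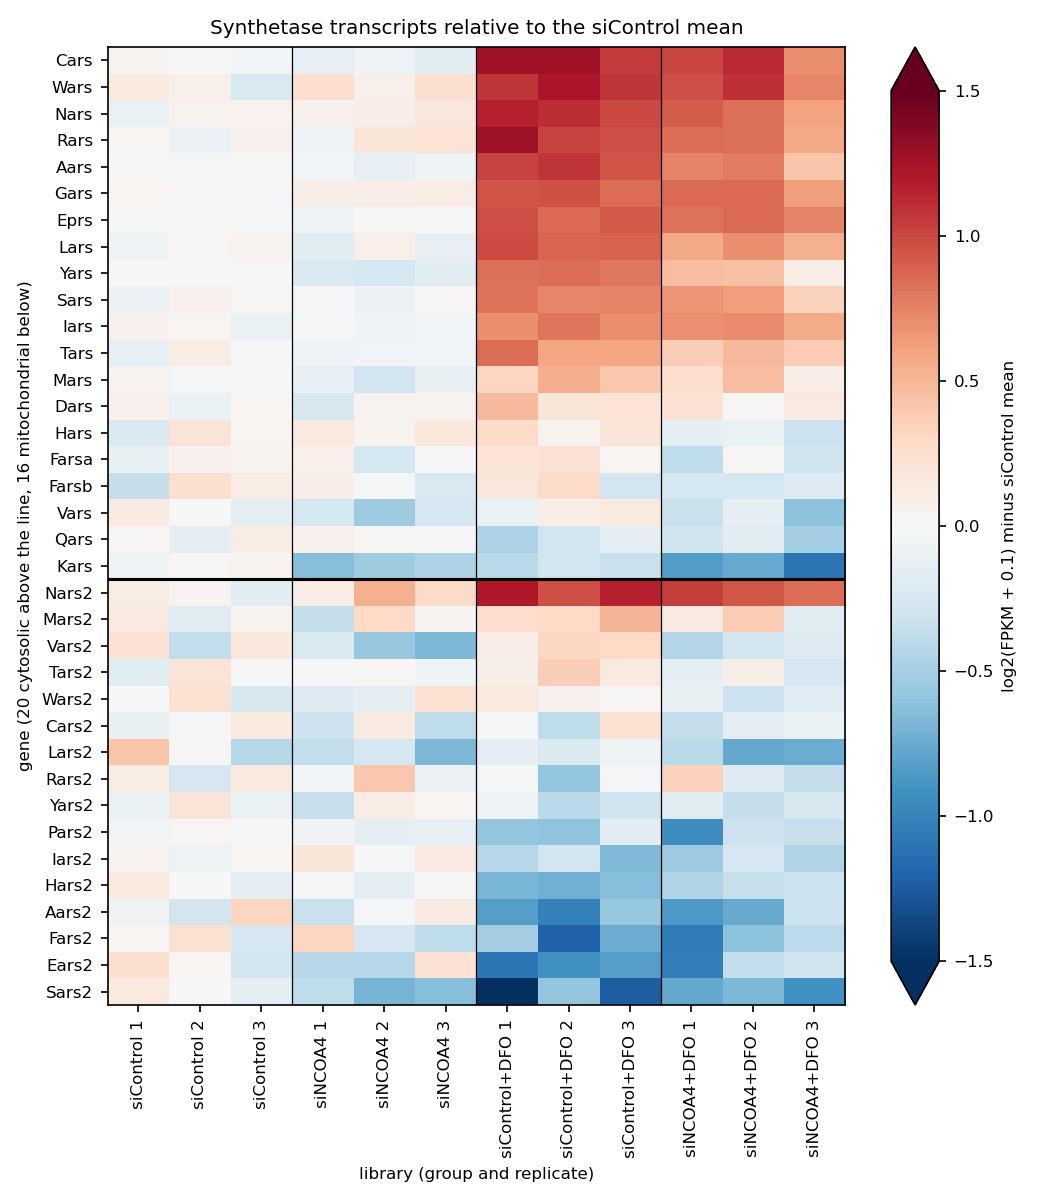
Level of each of the 36 members in each of the 12 libraries, as log2(FPKM + 0.1) minus the siControl mean, with 20 cytosolic genes above the line and 16 mitochondrial genes below, ordered by their change with DFO; values beyond 1.5 in either direction take the end colours. The cytosolic block is mostly red in the DFO libraries and paler in siNCOA4+DFO, and Nars2 is the only mitochondrial row that is strongly red there.

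Cars, the cysteine enzyme, had the largest rise among cytosolic members. It stood at 33.0, 31.8 and 31.2 FPKM in siControl and at 76.6, 77.5 and 66.0 in siControl+DFO, with no overlap. That is a log2 fold change of 1.19 ± 0.10 (SE, limma adjusted p = 1.43e-06), or 2.29-fold. Wars, the tryptophan enzyme, is among the least abundant cytosolic members. It went from 19.9, 19.0 and 15.4 FPKM to 37.9, 41.7 and 37.8, a log2 fold change of 1.12 ± 0.12 (limma adjusted p = 6.49e-06).

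Nars and Rars, which charge asparagine and arginine tRNAs, changed by nearly equal amounts. Nars rose from 66.3, 73.7 and 73.7 FPKM to 160, 153 and 141, with a log2 fold change of 1.08 ± 0.09 (limma adjusted p = 8.25e-07). Rars, a member of the multisynthetase complex, rose from 68.5, 63.2 and 70.1 to 162, 136 and 131, with a log2 fold change of 1.08 ± 0.11 (limma adjusted p = 4.16e-06). Both groups were well apart in each gene. Aars, the alanine enzyme with the element in its window, rose from 135, 133 and 135 to 271, 282 and 258, a log2 fold change of 1.01 ± 0.09 (limma adjusted p = 1.94e-06). Aars shares 15.1% of its exonic bases with Exosc6 on the same strand, so some of its reads may have been counted for either gene.

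Of the other cytosolic members that rose, Eprs, the fused glutamate and proline enzyme, Gars and Lars, the leucine enzyme, each had a log2 fold change of 0.91. Yars, the tyrosine enzyme, went from 64.1, 63.6 and 63.1 FPKM to 113, 114 and 110. These were the tightest groups among the cytosolic members relative to their level. The log2 fold change of Yars was 0.82 ± 0.09 (limma adjusted p = 8.55e-06). Sars (serine) rose by 0.76, Iars by 0.73 and Tars by 0.68 on the log2 scale. The methionine enzyme Mars rose by 0.43 and the aspartate enzyme Dars by 0.29, the smallest of the 14 rises (limma adjusted p = 0.0337). The Dars call was lost without siControl replicate 2 or 3 or siControl+DFO replicate 1, with adjusted p up to 0.146 in those fits, and also under quantile scaling (0.158) and without the trend (0.0565). Mars overlaps Ddit3 on the opposite strand over 1.99% of its exonic bases. Ddit3, a stress transcription factor, rose by 3.05 on the log2 scale, and whether counting used strand is not given in the sources used here.

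Kars and Qars, both of the multisynthetase complex, were the 2 cytosolic members that fell. Kars, the lysine enzyme of both compartments, went from 81.0, 86.6 and 88.5 FPKM to 64.2, 69.7 and 67.5, without overlap, a log2 fold change of -0.35 ± 0.09 (limma adjusted p = 0.00542). Qars, the glutamine enzyme, went from 46.5, 42.0 and 49.9 to 33.4, 37.7 and 41.6, a log2 fold change of -0.30 ± 0.10 (limma adjusted p = 0.0292). The ranges of Qars lay close together, and the call was lost without siControl replicate 1 (adjusted p = 0.0629) or 3 (0.109) or siControl+DFO replicate 1 (0.122) or 2 (0.0604). The members that did not pass were Farsa and Farsb, the subunits of the phenylalanine enzyme, with log2 fold changes of 0.15 and 0.06, Hars (histidine) with 0.18, and Vars (valine) with 0.05. Vars stood at 61.6, 56.5 and 51.1 FPKM in siControl and at 52.4, 60.2 and 62.1 in siControl+DFO, with a 95% interval of the log2 fold change from -0.23 to 0.32.

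By architecture, 6 of 8 cytosolic members of the multisynthetase complex rose and 2 fell with DFO (median 0.58), and 8 of 12 outside it rose and none fell (median 0.79). By catalytic class, 7 of 9 class I members rose and 1 fell (median 0.82), and 6 of 10 class II members rose and 1 fell (median 0.49), with Eprs, which holds both classes, counted in neither. All 5 genes with the element in their window rose. Of the 8 cytosolic members with a window without it, 4 rose (Eprs, Sars, Mars and Dars), 2 fell (Kars and Qars) and 2 did not pass (Farsa and Farsb). Cars, Wars, Nars, Rars, Lars, Hars and Vars had no window in the table, so most of the largest rises are outside this comparison. No difference between these subgroups was tested.

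In the mitochondrial set DFO lowered 6 of 16 members and raised 1, with 25.7% and 27.7% of all genes moving in these directions. With a fold change above 2 as well, 1 rose and 1 fell, where 11.1% and 7.76% of all genes did so. Sars2, the mitochondrial serine enzyme, fell furthest, from 7.96, 7.22 and 6.49 FPKM to 1.92, 4.75 and 2.99, a log2 fold change of -1.23 ± 0.25 (limma adjusted p = 0.00143). Its siControl+DFO libraries differed widely among themselves but all lay below siControl. Ears2 went from 1.49, 1.27 and 1.00 FPKM to 0.531, 0.615 and 0.652, a log2 fold change of -0.94 ± 0.32 (limma adjusted p = 0.0248). It is the least abundant member, near the filter of 0.5 FPKM, and the call was lost without siControl replicate 1 or 2 or siControl+DFO replicate 1 or 2, with adjusted p from 0.0505 to 0.0828.

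Fars2, the mitochondrial phenylalanine enzyme, went from 9.33, 10.7 and 7.66 FPKM to 6.34, 3.90 and 5.43, a log2 fold change of -0.82 ± 0.24 (limma adjusted p = 0.0113). The groups did not overlap, but the call was lost without siControl+DFO replicate 2 (adjusted p = 0.0525). Aars2, Hars2 and Iars2, for alanine, histidine and isoleucine, fell by 0.81, 0.68 and 0.46 on the log2 scale. Iars2 shares 24.2% of its exonic bases with genes on the opposite strand, mainly Rab3gap2. Fars2 shares 10.7% with Nrn1 and Lyrm4 on the opposite strand, and Nars2 shares 4.08% with C230038L03Rik on the opposite strand. Hars and Hars2 overlap each other on opposite strands over 7.97% and 4.56% of their exonic bases. Hars and Hars2 had log2 fold changes of 0.18 and -0.68 with DFO.

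Of 16 mitochondrial estimates 5 were positive, and Nars2, the mitochondrial asparagine enzyme, was the only member that passed upwards. It went from 2.44, 2.31 and 2.01 FPKM to 5.29, 4.50 and 5.15, a log2 fold change of 1.11 ± 0.16 (limma adjusted p = 0.000114) and behind only Cars and Wars among all 36 members. The remaining mitochondrial members did not pass. Mars2 stood at 6.09, 4.85 and 5.71 FPKM in siControl and at 6.65, 6.80 and 7.92 in siControl+DFO, without overlap but with a limma adjusted p of 0.133. Vars2, at 2.98, 1.95 and 2.87 against 2.74, 3.18 and 3.18, overlapped. Tars2 (0.20), Wars2 (0.07), Cars2 (-0.05), Lars2 (-0.14), Rars2 (-0.20), Yars2 (-0.26) and Pars2 (-0.45) gave log2 fold changes that did not pass, Pars2 narrowly so (limma adjusted p = 0.0552). Pars2 passed without siControl+DFO replicate 3 (0.0255) or siNCOA4+DFO replicate 1 (0.0225).

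**Figure D2:**
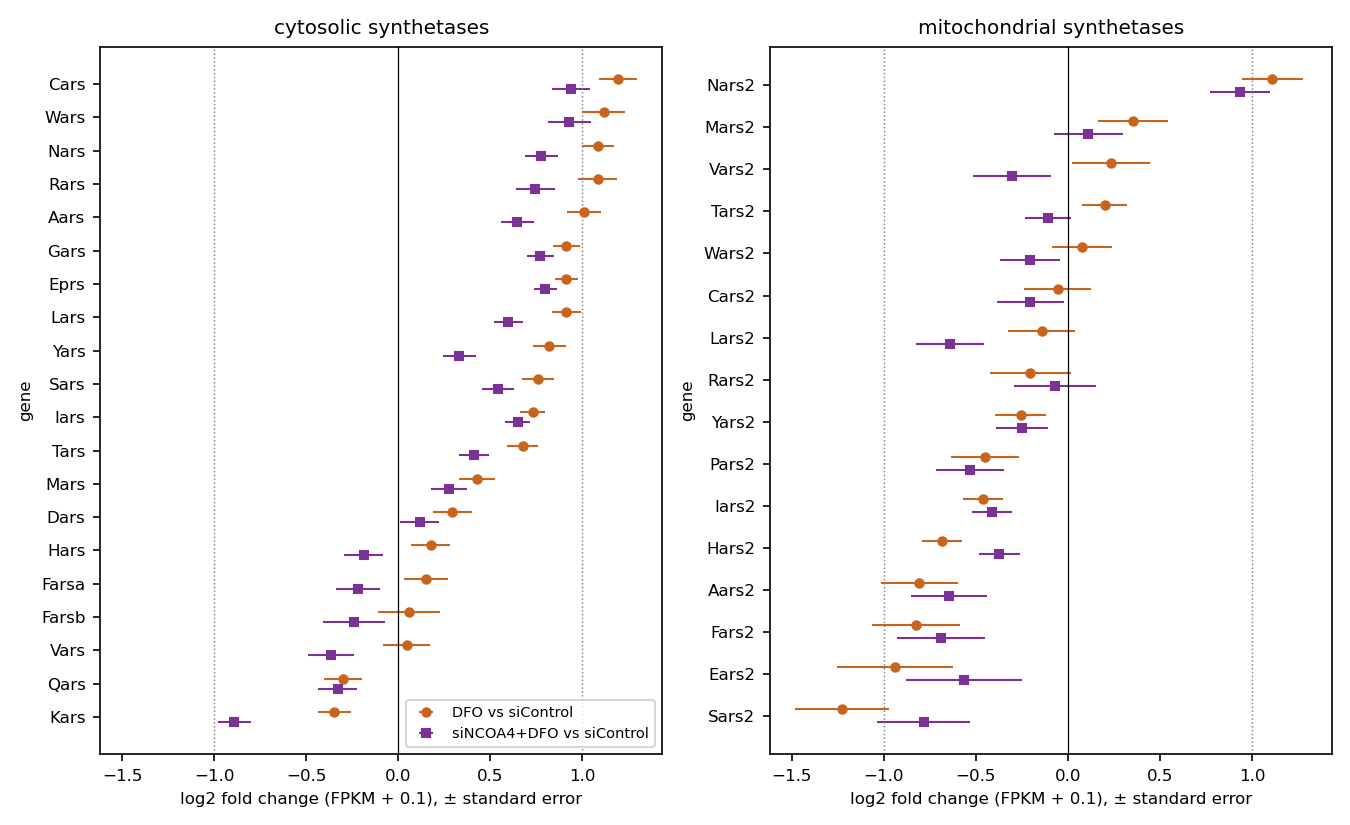
Log2 fold change on the log2(FPKM + 0.1) scale with its standard error for each cytosolic (left) and mitochondrial (right) member, in siControl+DFO (circles) and siNCOA4+DFO (squares), both against the same siControl libraries; dotted lines mark a fold change of 2. Cars leads the cytosolic panel at 1.19 and Kars closes it, whereas Sars2 closes the mitochondrial panel at -1.23 and Nars2 leads it at 1.11.

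Setting the cytosolic against the mitochondrial enzyme for the same amino acid within each library removes differences shared by both. In 15 such pairs the log2 ratio of cytosolic to mitochondrial FPKM shifted with DFO by a median of 1.06, and 13 of 15 shifts were positive. In 12 pairs all 3 siControl+DFO ratios lay above all 3 siControl ratios, which gives the two-sided exact permutation p of 0.1, the smallest that 3 against 3 allows, and 0.125 after Benjamini-Hochberg adjustment over the 15 pairs. With DFO 31.1% of single genes lay wholly above siControl and 29.6% wholly below. The share for ratios of other gene pairs was not computed, so the counts of 12 and 13 have no background. The shift was widest for serine, where the log2 ratio of Sars to Sars2 went from 3.47 ± 0.21 to 5.46 ± 0.67 (SD, n = 3). The ratio of Eprs to Ears2 shifted by 1.85 and that of Aars to Aars2 by 1.82. The exceptions were methionine, asparagine and valine, whose ratios overlapped between the groups with shifts of 0.07, -0.03 and -0.19. For asparagine both enzymes rose, and for valine neither enzyme passed.

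**Figure D3:**
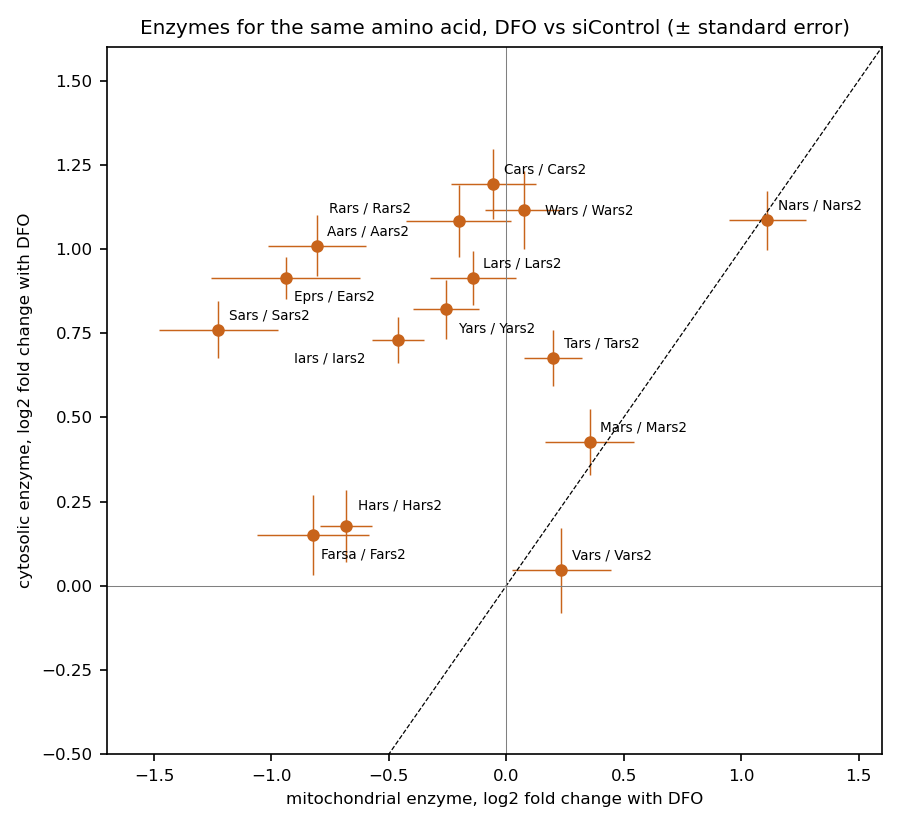
Log2 fold change with DFO of the mitochondrial enzyme (horizontal) and of the cytosolic enzyme for the same amino acid (vertical), each with its standard error, for 15 pairs; the dashed line marks equal change. Sars / Sars2 lies furthest from the line, Nars / Nars2 lies on it at 1.11 and 1.08, and Vars / Vars2 is below it.

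The neighbouring machinery was described from lists of genes in the same pathways, whose counts are to be read against the 27.7% of all genes that rose and 25.7% that fell with DFO. Of the 3 scaffold genes of the multisynthetase complex, Aimp2 rose by 0.61 and Aimp1 by 0.28 on the log2 scale with DFO, and Eef1e1 at 0.34 did not pass (limma adjusted p = 0.1). Of 5 cytosolic elongation factors tested none rose and 2 fell, Eef1d by 0.58 and Eef1g by 0.40 on the log2 scale, while Eef1a1 at -0.12 did not pass.

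Among 12 genes of mitochondrial tRNA processing and elongation, 1 rose and 7 fell, with a median of -0.47. Mtfmt, which formylates the initiator methionyl-tRNA, fell from 3.96, 5.90 and 4.86 FPKM to 1.46, 3.04 and 1.76. Gatc and Qrsl1, subunits of the glutamyl-tRNA amidotransferase, fell by 1.06 and 0.74 on the log2 scale. Of 15 genes of tRNA handling 3 rose and 3 fell, in both directions a smaller share than over all genes. Xpot, the nuclear exporter of tRNAs, rose by 0.73, Aarsd1, which clears mischarged alanine tRNAs, fell by 0.93, and Prorsd1 at -0.65 did not pass.

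Of 23 genes of the Atf4 amino acid response 20 rose and 1 fell, 15 of them by more than 2-fold, with a median of 1.33. Atf4 itself stood at 231, 264 and 272 FPKM in siControl and at 532, 527 and 521 in siControl+DFO, a log2 fold change of 1.04 ± 0.10 (limma adjusted p = 2.34e-06). Ppp1r15a, a phosphatase subunit that restores translation, Slc7a11, the cystine transporter, and Sesn2 rose the most, by 5.44, 3.59 and 3.28 on the log2 scale. Asns, asparagine synthetase, rose by 0.75, an amount within the range of the cytosolic tRNA synthetases.

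Ncoa4 siRNA without DFO left nearly all members near their siControl level. In siNCOA4 against siControl no cytosolic member rose and 1 fell, where 4.52% of all genes rose and 7.21% fell, and no mitochondrial member passed in limma at an adjusted p below 0.05. At an unadjusted p below 0.05 there were 3 cytosolic and 3 mitochondrial members, where 26.2% of all genes were. None passed a fold change of 2, where 0.805% of all genes rose and 0.973% fell by that rule. Libraries of the groups did not overlap in 2 cytosolic members that were higher and 6 that were lower, as in 14.9% and 17.6% of all genes. Medians were -0.04 and -0.07 on the log2 scale. The member that fell was Kars, from 81.0, 86.6 and 88.5 FPKM to 54.8, 58.7 and 62.1, a log2 fold change of -0.54 ± 0.09 (limma adjusted p = 0.0022), or 0.686-fold. All 3 siNCOA4 libraries lay below all siControl libraries. Kars lies at chr8:111993439-112011354 (GRCm38.p6), and none of its exonic bases overlaps another gene in the annotation used here.

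Vars had the next largest cytosolic difference, at 46.7, 38.7 and 47.3 FPKM in siNCOA4, below siControl in every library but with a log2 fold change of -0.35 ± 0.13 that did not pass (limma adjusted p = 0.0957). Without siNCOA4+DFO replicate 3, a library outside this comparison that enters the shared spread, 3 cytosolic members passed, Kars, Vars (adjusted p = 0.0492) and Yars (0.021). In mitochondria Sars2 stood at 5.52, 4.40 and 4.60 FPKM, a log2 fold change of -0.57 ± 0.25 (limma adjusted p = 0.175), and Vars2 at 2.16, 1.70 and 1.57, a log2 fold change of -0.49 ± 0.21 (limma adjusted p = 0.164). Both rested on low levels with wide intervals. Without siControl replicate 3, 1 mitochondrial member passed, Lars2 at -0.65 (adjusted p = 0.0279).

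When both treatments were given, most cytosolic members rose. In siNCOA4+DFO against siControl 13 of 20 cytosolic members rose and 3 fell, where 25.4% of all genes rose and 23.4% fell, and the median was 0.48. None passed a fold change of 2 as well, where 9.24% of all genes rose and 5.93% fell by that rule. Cars at 64.3, 69.3 and 51.7 FPKM and Wars at 35.3, 38.4 and 29.9 had the highest log2 fold changes, 0.94 ± 0.10 (limma adjusted p = 1.31e-05) and 0.93 ± 0.12 (3.52e-05). Kars, at 47.8, 50.5 and 40.3 FPKM, had the lowest, -0.89 ± 0.09 (limma adjusted p = 5.7e-06). Vars and Qars fell as well, by 0.36 and 0.33 on the log2 scale, and Dars did not pass (limma adjusted p = 0.379). The Qars call was lost without siControl replicate 3 or siNCOA4+DFO replicate 3 (adjusted p up to 0.0808), and the Vars call without siControl replicate 1 or 2 or siNCOA4+DFO replicate 1 or 3 (up to 0.12). The rise of Mars by 0.27 was lost without siControl replicate 2 or 3 or siNCOA4+DFO replicate 1 or 2 (up to 0.151).

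Of the mitochondrial members 1 rose and 7 fell in this comparison, with a median of -0.34. Nars2, at 4.73, 4.37 and 4.10 FPKM, rose by 0.94 (limma adjusted p = 0.000479). Sars2 at 4.17, 4.48 and 3.80 fell by 0.78 (limma adjusted p = 0.0218), and Fars2, Aars2, Pars2, Iars2, Hars2 and Lars2 fell by 0.69, 0.65, 0.53, 0.41, 0.37 and 0.64 on the log2 scale. Ears2, at 0.553, 0.936 and 0.992 FPKM, did not pass. Of these falls, that of Sars2 was lost without siControl replicate 1 or 2 or siNCOA4+DFO replicate 3 (adjusted p up to 0.0657), that of Aars2 without siControl replicate 3 or siNCOA4+DFO replicate 1 or 2 (up to 0.096) and that of Hars2 without siControl replicate 1 (0.0556). Fars2 lost its call without siControl replicate 1 or 2 or siNCOA4+DFO replicate 1 or 2 (up to 0.121), and Pars2 without siNCOA4+DFO replicate 1 or any siControl library (up to 0.125). The mitochondrial count dropped to 4 without siControl replicate 1, and to 5 without siControl replicate 2 or siNCOA4+DFO replicate 1. The Lars2 fall stands beside the Rn45s ratios given above.

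With siNCOA4 as the baseline, most cytosolic members again rose with DFO. In siNCOA4+DFO against siNCOA4 13 of 20 cytosolic members rose and 3 fell, where 23.1% of all genes rose and 19.6% fell, and the median was 0.56. Cars, from 29.4, 30.5 and 28.3 FPKM, alone passed a fold change of 2 (2.08-fold, log2 1.06 ± 0.10, limma adjusted p = 7.66e-06), a rule that 7.59% of all genes passed upwards and 3.83% downwards. The 3 that fell were Qars, Kars and Hars, by 0.36, 0.35 and 0.30 on the log2 scale. Of 16 mitochondrial members 1 rose and 3 fell, shares below those of all genes, and the median was -0.19. Nars2 rose by 0.63, and Aars2, Iars2 and Hars2 fell by 0.57, 0.52 and 0.32. The Hars call was lost without siNCOA4 replicate 1 or 3 or siNCOA4+DFO replicate 1 or 3 (adjusted p up to 0.118), and the Qars call without siNCOA4 replicate 1 or siNCOA4+DFO replicate 3 (up to 0.0567). Hars2 lost its call without siNCOA4 replicate 1 or 3 or siNCOA4+DFO replicate 1 or 2 (up to 0.107), and Aars2 when any 1 of 6 libraries was left out (up to 0.148). This mitochondrial count of 4 dropped to 2 without siNCOA4 replicate 3, siNCOA4+DFO replicate 1 or siNCOA4+DFO replicate 2. The comparisons above share siControl or siNCOA4+DFO libraries, so they are not independent of each other.

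Among DFO-treated cells the Ncoa4 siRNA lowered part of the cytosolic set. In siNCOA4+DFO against siControl+DFO 9 of 20 cytosolic members fell and none rose, where 10.2% of all genes fell and 6.22% rose. All 20 log2 fold changes were negative, where 5875 of 11924 over all genes tested were positive. The cytosolic median was -0.28 against -0.01 over all genes tested. No cytosolic member passed a fold change of 2, where 1.07% of all genes rose and 1.01% fell by that rule. In 12 members the libraries of the 2 groups did not overlap, which 20.1% of all genes showed in this direction. Of the mitochondrial members 1 was higher and 4 were lower without overlap, where 14.7% of all genes were higher in this way. No mitochondrial member passed in limma, 4 of 16 had an unadjusted p below 0.05, where 32.2% of all genes did, and the median of all 16 was -0.04. The 9 that fell were Kars, Yars, Vars, Hars, Aars, Rars, Lars, Nars and Tars.

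Kars and Yars had the largest falls. Kars went from 64.2, 69.7 and 67.5 FPKM to 47.8, 50.5 and 40.3, a log2 fold change of -0.54 ± 0.09 (limma adjusted p = 0.00208). Yars went from 113, 114 and 110 to 87.7, 86.4 and 67.9, a log2 fold change of -0.49 ± 0.09 (limma adjusted p = 0.00365). Both were apart from siControl+DFO in every library. Neither reached a fold change of 2, and neither lost its call in the 22 other alternatives. Vars (44.5, 51.1 and 36.8 FPKM) had a log2 fold change of -0.41 ± 0.13 (limma adjusted p = 0.0446). Hars went from 50.5, 42.8 and 47.3 to 37.5, 38.7 and 32.9, with -0.36 ± 0.11 (limma adjusted p = 0.0363). Aars, Rars, Lars, Nars and Tars differed by -0.36, -0.34, -0.31, -0.31 and -0.26 on the log2 scale.

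The number of these falls depended on single libraries and settings. siNCOA4+DFO replicate 3, the shallowest library, was the lowest of its group in 16 of 20 cytosolic members, with a median log2 difference from siControl of 0.36 against 0.52 and 0.55 in replicates 1 and 2. The siControl+DFO libraries gave 0.82, 0.76 and 0.72. Without siNCOA4+DFO replicate 3, only 3 cytosolic members passed in place of 9. Without siControl+DFO replicate 1 or 2 there were 4, and without siControl+DFO replicate 3, siNCOA4 replicate 3 or siNCOA4+DFO replicate 1 there were 5. Quantile scaling left 2, with a cytosolic median of -0.14. Rars and Tars, with adjusted p just under 0.05, lost their call when any 1 of 11 libraries was left out (up to 0.17 and 0.169), Vars when any 1 of 7 was (up to 0.152) and Hars when any 1 of 6 was (up to 0.12). Nars lost it without siControl+DFO replicate 1 or 2 or siNCOA4+DFO replicate 2 or 3 (up to 0.109), Lars without siControl+DFO replicate 1 (0.0681) or siNCOA4+DFO replicate 3 (0.0619), and Aars without siControl+DFO replicate 2 (0.0676). In no alternative did any of the 9 change sign. In mitochondria Lars2 passed without siControl replicate 1 (adjusted p = 0.0358) or 3 (0.0367), and Sars2 without siControl+DFO replicate 2 (0.0379), at 0.76 on the log2 scale.

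**Figure D4:**
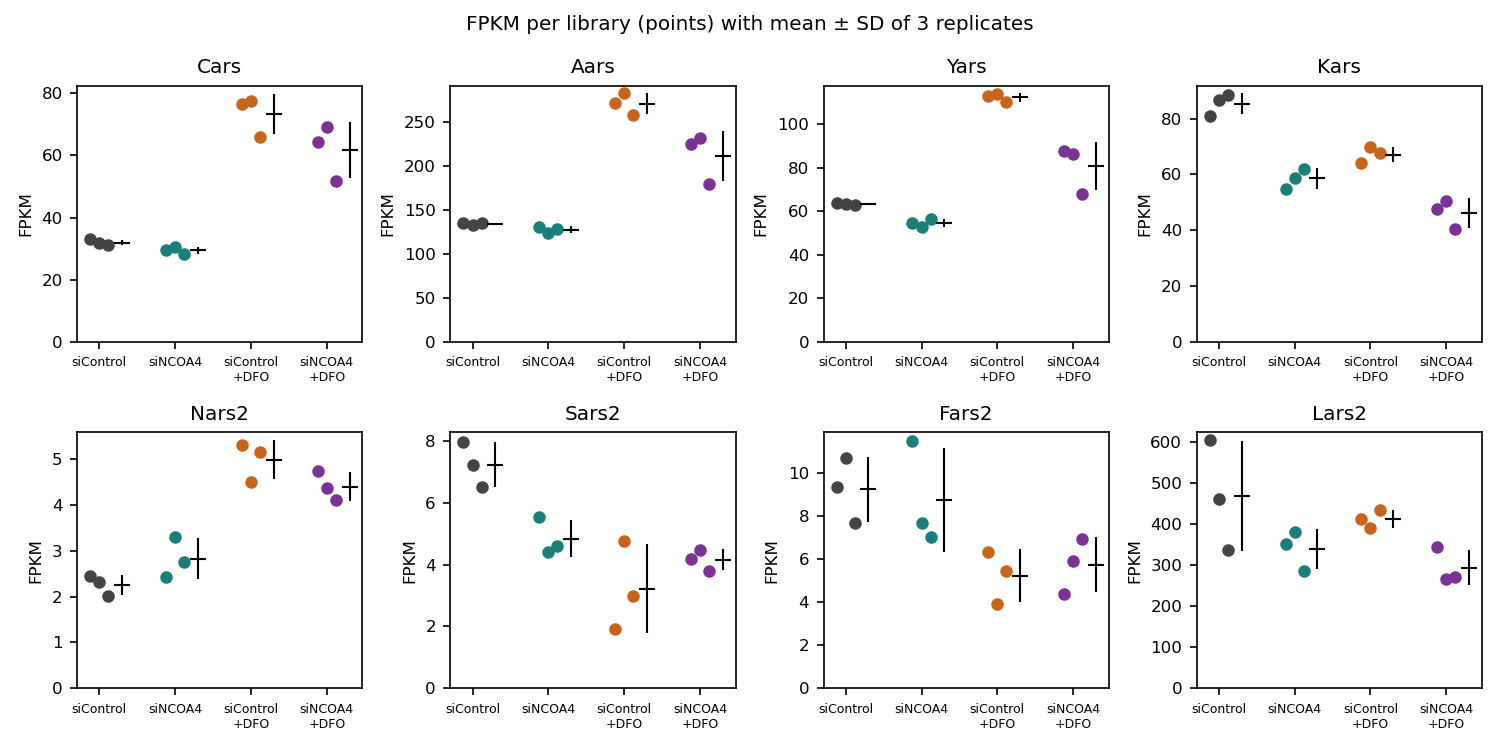
FPKM of 8 members in each library (points, 3 per group) with the mean ± SD beside them, on axes that start at 0. In siNCOA4+DFO the Aars and Yars points lie between siControl and siControl+DFO, the Cars points lie above siControl and overlap siControl+DFO, Kars is lowest, Nars2 stays high, and the Lars2 points of siControl spread from 338 to 605.

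Mitochondrial members showed the same contrast as scattered values. Vars2, at 1.86, 2.1 and 2.22 FPKM in siNCOA4+DFO, had a log2 fold change of -0.54 ± 0.21 (limma adjusted p = 0.102) and Lars2 one of -0.50 ± 0.18 (limma adjusted p = 0.0828). Sars2 (0.44), Ears2 (0.37) and Hars2 (0.31) were positive and did not pass. Of these, Hars2 stood apart from siControl+DFO in every library, at 6.60, 7.10 and 7.19 FPKM against 5.57, 5.44 and 5.76, with a limma adjusted p of 0.0734.

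Whether the effect of the Ncoa4 siRNA differed with and without DFO was tested as an interaction. No member passed in limma, in either compartment, where 2.1% of all genes passed in either direction. At an unadjusted p below 0.05 there were 8 of 20 cytosolic and 2 of 16 mitochondrial members, where 18.2% of all genes were. The cytosolic median was -0.23, against -0.006 over all genes tested. Of 20 cytosolic estimates 18 were negative, where 5877 of 11924 over all genes tested were positive. The largest cytosolic estimates were those of Hars (-0.48 ± 0.15, limma adjusted p = 0.116) and Rars (-0.44 ± 0.15, limma adjusted p = 0.142). Kars was at 0.00, with a 95% interval from -0.27 to 0.27, and its falls with siRNA were -0.54 in both arms. Among mitochondrial members Sars2 had the largest estimate, 1.01 ± 0.36 (limma adjusted p = 0.156), followed by Ears2 at 0.59. Without siControl+DFO replicate 2, Sars2 passed, at 1.33 (adjusted p = 0.048). Most cytosolic estimates thus shared a direction, and no single gene passed. These estimates rest on the same libraries, so they are not independent of each other. Among them, siNCOA4+DFO replicate 3 was the lowest of its group in 16 of 20 cytosolic members.

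**Figure D5:**
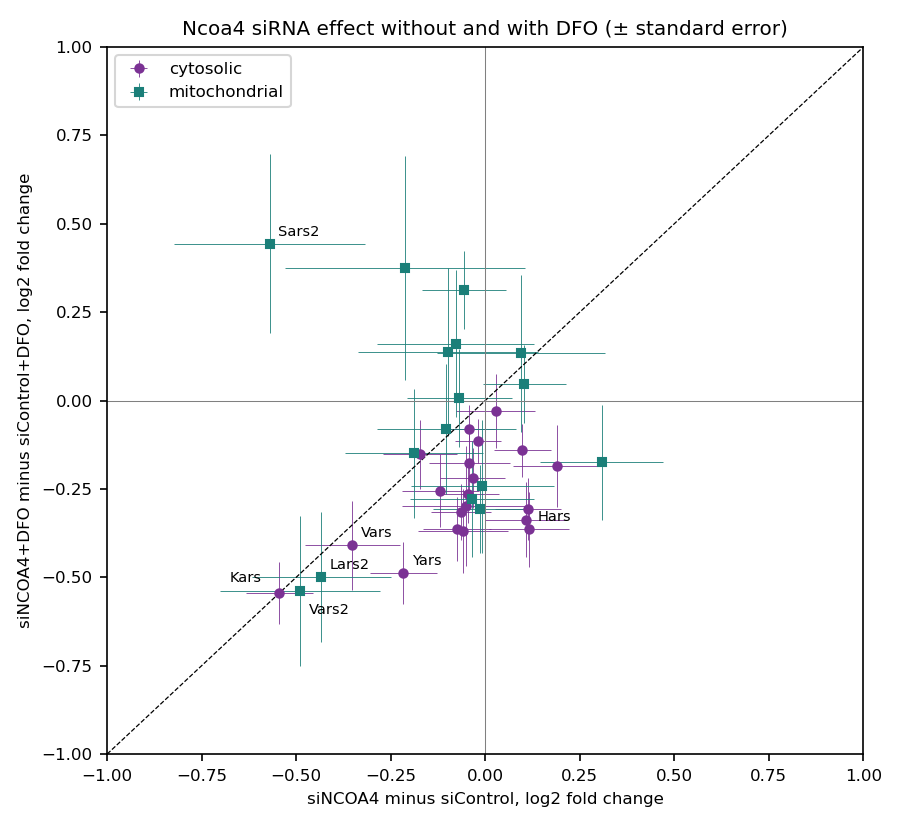
Log2 fold change with Ncoa4 siRNA in cells without DFO (horizontal) and with DFO (vertical), each with its standard error, for 20 cytosolic (circles) and 16 mitochondrial (squares) members; the dashed line marks equal effects. All 20 circles lie below 0 on the vertical axis and most lie below the dashed line, whereas Kars lies on it at -0.54 and Sars2 lies above it.

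The surrounding lists were also followed in the same contrast of siNCOA4+DFO against siControl+DFO. Here 6.22% of all genes rose and 10.2% fell. In the Atf4 amino acid response 1 of 23 genes rose and 6 fell, with a median of -0.27. Ppp1r15a fell by 1.08 and Shmt2, a mitochondrial serine enzyme of folate metabolism, by 0.51 on the log2 scale, whereas Slc7a11 rose by 0.54. In siNCOA4+DFO replicate 3 Ppp1r15a stood at 105 FPKM against 179 and 172 in replicates 1 and 2, and Shmt2 at 115 against 153 and 145. Slc7a11 stood at 24.4 there against 25.85 and 25.6. The lists were not followed in fits without single libraries. Atf4 itself, at 486, 439 and 379 FPKM, did not pass (-0.28 ± 0.10, limma adjusted p = 0.0617). Of 5 elongation factors Eef1g fell by 0.75, and it had also fallen by 0.80 with siNCOA4 alone, while Eef1b2 (-0.19) and Eef2 (-0.18) did not pass. In the mitochondrial tRNA and elongation list 2 of 12 rose and 1 fell. Mtfmt rose by 0.79 and Gatc by 0.53 on the log2 scale, and Tufm, the mitochondrial elongation factor Tu, fell by 0.47. Of 15 genes of tRNA handling none rose and 3 fell, with Nsun2, a tRNA methyltransferase, at -0.52, while Prorsd1 (0.77) and Dtd2 (0.55) did not pass. No scaffold gene of the multisynthetase complex passed in this contrast.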

How the data were processed

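Total RNA of 12 HT22 samples was made into libraries with a SMARTer stranded total RNA kit. The submitters' processing notes name Trimmomatic 0.33, FastQC, HISAT2 2.1.0, featureCounts, edgeR and the build mm10. The annotation, filters and strand setting are not given in the sources used here. The authors deposited 1 table per library with FPKM values for 24347 entries, of which 24343 have a unique name. No raw counts were used, so the count test named in the notes could not be run, and counting intervals cannot be given.

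Genes had to reach 0.5 FPKM in 3 or more libraries, which left 11924. limma 3.58.1 (R 4.3.3) was fitted on log2(FPKM + 0.1) with 4 group means over all 12 libraries, empirical Bayes with trend, and Benjamini-Hochberg adjustment within each comparison over all genes tested. Fold changes are on this scale and understate those of low genes. A member rose or fell at an adjusted p below 0.05, and the count with a fold change above 2, the cut used in the study, is given beside it. In simulated data for DFO against siControl over 11924 genes, 82% of 200 genes changed by 1 log2 unit were recovered, with 2 false calls. The changed genes were drawn from those with a mean log2 level above 1, in independent normal noise. Far fewer genes changed there than were called with DFO in the data, so these rates do not carry over to the data or to low members. Ratios of enzyme pairs used an exact permutation test (scipy 1.17.1). One element match is not reported here. Promoter windows and gene positions are those of RefSeq (GRCm38.p6), and overlaps and shared 75-base stretches those of the GENCODE annotation of the same build.

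Replicates are separate samples of each group by the labels, and correlations within groups were 0.926 to 0.955. Replicate numbers recur across groups, but same-numbered libraries did not deviate together, with correlations of -0.127 to 0.116 and 2 of 18 above 0.1, so they were not paired in the fit. The members, gene lists and tests were chosen with earlier results of these data known. Values per library are given for Ncoa4, for members past both thresholds in any comparison, and, per compartment, for the 3 highest and 3 lowest changes with DFO and the 2 largest with Ncoa4 siRNA, with and without DFO, and in the interaction; other members are given by level or change. In lists of more than 4 genes the 3 largest changes are named. Atf4, Asns, Ddit3, Rn45s, Slc1a3, Aldh1l1, Camk2a, Pdgfra and the members that passed in single alternatives were named after their values were seen. Alternatives were other pseudocounts (1 and 0.01), filters (none, 2 FPKM), scalings (median of ratios, quantile), a replicate block, the compared groups alone, no trend, robust variances, a fold change above 2, and leaving out each library.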

Additional observations from a re-analysis of the deposited data

How the results depend on the processing

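Directions were steadier than calls. Of 77 member comparisons that passed, 69 were lost when a fold change above 2 was required as well. Under the other alternatives none changed sign, 24 lost their call under at least 1, 17 of them with all libraries kept, and 23 without some single library. The fold change above 2 cut the cytosolic counts to 5 of 16 (DFO), 0 of 16 (siNCOA4+DFO against siControl), 0 of 9 (against siControl+DFO), 1 of 16 (against siNCOA4) and 0 of 1 (siNCOA4), and the mitochondrial ones to 2 of 7, 0 of 8 and 0 of 4 for DFO, siNCOA4+DFO against siControl and against siNCOA4. In siNCOA4+DFO against siControl+DFO the 9 cytosolic calls became 5 without a filter, 2 with quantile scaling, 4 without the trend and 3 with the compared groups alone, and the mitochondrial count of 0 became 1 with quantile scaling, without the trend and with the compared groups alone. That last setting also gave 2 cytosolic calls for siNCOA4 and 2 mitochondrial calls in siNCOA4+DFO against siNCOA4. With the compared groups alone fewer libraries entered the fit, whereas the other settings named here kept all libraries. The cause of these shifts was not tested.

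Leaving out 1 library gave, for cytosolic and mitochondrial members in turn, 1 to 3 and 0 to 1 calls for siNCOA4, 14 to 16 and 5 to 8 for DFO, 14 to 17 and 4 to 8 for siNCOA4+DFO against siControl, 3 to 8 and 0 to 1 against siControl+DFO, 14 to 16 and 2 to 5 against siNCOA4, and 0 and 0 to 1 for the interaction. A replicate block, for numbers that do not pair the libraries, left 4 of the 9 cytosolic calls in siNCOA4+DFO against siControl+DFO, lost 8 of the 77 calls, and moved no other count by more than 1.5 times. The 12 of 15 enzyme pairs that separated with DFO were also 12 with either other pseudocount. Depth, known only relative to one library, limits the low mitochondrial members most.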
